A study of Mus musculus with 38 samples.

Results

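The 7 genes described here are Slc2a2, Gckr, Khk, Pfkl, Pfkfb1, Pfkfb3 and Pklr. They encode the hepatic glucose transporter, a regulator of glucose phosphorylation, and enzymes of glycolysis, its control and fructose use. They were taken by gene symbol from the deposited table of 21954 genes, and all 7 were found and passed the filter on low counts. Messenger RNA was sequenced from livers of female wild-type C57BL/6 mice in 38 libraries of 13 groups. Of these, 12 came from calorie-restricted mice (CR), on a limited daily ration, with 2 to 4 libraries at each of 0, 6, 14 and 22 h (2, 3, 3 and 4). Another 9 came from fasted mice (F), as 3 libraries for each of 6, 14 and 22 h, and 11 from mice that ate ad libitum (AL), with 3, 2, 3 and 3 libraries for 0, 6, 14 and 22 h. At zeitgeber time 18, counted from lights on, 3 libraries came from CR mice whose meal was missed (CR_missed) and 3 from CR mice that had been fed (CR_fed). A library is written as its group and its replicate number (F_14h 1). The event that starts the hours is not given in the sources used here, nor how severe the restriction was or that replicates were separate animals, so p-values measure the spread between these samples. The labelled ages climb by single months along the list of samples, apart from a few gaps, to reach 44 months, which makes the label doubtful, and no test used it. Were it right, age and group could not be told apart.

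Glycolysis in the liver takes up the sugar of a meal and turns it into pyruvate, which feeds fat synthesis, and the same cells run the opposite pathway, gluconeogenesis, during a fast. Glucose enters hepatocytes through GLUT2, the product of Slc2a2. Its phosphorylation is held back by glucokinase regulatory protein, the product of Gckr, which is released by fructose 1-phosphate, the product of ketohexokinase (Khk). Liver phosphofructokinase (Pfkl) catalyses the committed step and is switched on by fructose 2,6-bisphosphate, which the bifunctional enzymes Pfkfb1 and Pfkfb3 make, and liver pyruvate kinase (Pklr) catalyses the last step. Pklr transcription is a classic target of ChREBP (gene Mlxipl), a factor that senses sugar and binds the carbohydrate response element.

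Promoter sequence is shown for Pklr and Khk, the members with most of the called differences. Of the 32851 RefSeq promoters of GRCm38.p6, each 300 bases from 250 before to 50 after the start site, 12 belong to the 7 genes. Pklr has an upstream start, used in red cell precursors, and a downstream start, used in liver. The downstream promoter, chr3:89136373-89136672 on the plus strand, holds CACGNG followed by 5 bases of any kind and CNCGTG, searched on both strands as the carbohydrate response element, at -170 to -154 from the start, and TATAAA at -31 to -26. The first motif stood in 0.0457% of all promoters (15) and in 1 of the 12, and TATAAA in 13.6% of all promoters and in 2 of the 12. The Khk promoter, chr5:30921309-30921608 on the plus strand, holds the E-box CACGTG at -71 to -66, a motif found in 7.15% of all promoters and in 2 of the 12 (Khk and Pfkfb3). These matches do not overlap one another and describe letters only. Capitals mark the carbohydrate response element and TATAAA in the sequence of Pklr and the E-box in that of Khk, 5′ to 3′.
Pklr downstream promoter: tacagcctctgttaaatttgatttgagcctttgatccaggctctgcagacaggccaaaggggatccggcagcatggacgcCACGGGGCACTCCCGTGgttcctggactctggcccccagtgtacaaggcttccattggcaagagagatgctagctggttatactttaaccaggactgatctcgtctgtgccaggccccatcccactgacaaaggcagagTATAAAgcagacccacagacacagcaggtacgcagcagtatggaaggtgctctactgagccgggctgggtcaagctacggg
Khk promoter: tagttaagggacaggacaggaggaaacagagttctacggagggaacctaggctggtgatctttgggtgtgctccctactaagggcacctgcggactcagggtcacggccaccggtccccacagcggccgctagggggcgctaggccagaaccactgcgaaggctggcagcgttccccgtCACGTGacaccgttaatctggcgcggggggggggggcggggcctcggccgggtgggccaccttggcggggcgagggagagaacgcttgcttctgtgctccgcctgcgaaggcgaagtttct

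Totals lay between 17131292 and 30152277 expected counts per library. Levels of single genes are given in CPM, a gene's counts scaled to the TMM-normalised library size. The summed levels of cell type markers, here and below, are in CPM of the library total without TMM scaling. They are therefore not on the same scale as the levels of single genes. All 7 hepatocyte markers on the list were detected, with summed levels of 74910 to 148900 CPM per library. Skeletal muscle markers had a median of 0.151 CPM but reached 170.3 CPM in CR_fed 1 and 106 CPM in CR_6h 3, and red blood cell markers ranged from 167 to 9273 CPM, highest in CR_missed 3. A total of 6 libraries stood apart. In AL_0h 2 and AL_22h 2 the 12 clock genes were opposite to those of their labelled time, with correlations of -0.76 and -0.96 to the other libraries of that time. AL_0h 3, CR_6h 3, CR_14h 3 and CR_22h 3 were nearest to a library of another diet. The tissue is bulk liver, so fewer cells of a type and less RNA per cell cannot be told apart.

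Per transcript length, on the scale of the authors' rescaled TPM, the 7 genes differed widely. Khk had the highest median over the 38 libraries, 357, with a range of 115 to 886. Slc2a2 (123), Pklr (106) and Gckr (90.5) had similar medians. Pfkfb1 (19.5) and Pfkl (12.9) were lower, and Pfkfb3, an isoform best known from proliferating and inflamed cells, had a median of 1.53. On this scale Pkm, the pyruvate kinase gene of muscle and many other tissues, had a median of 11.1. The lowest and highest libraries of Pklr, with 22.4 and 255, lay further apart in proportion than those of Khk, Slc2a2 (60.02 and 308) or Gckr (58.1 and 194).

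**Figure D1:**
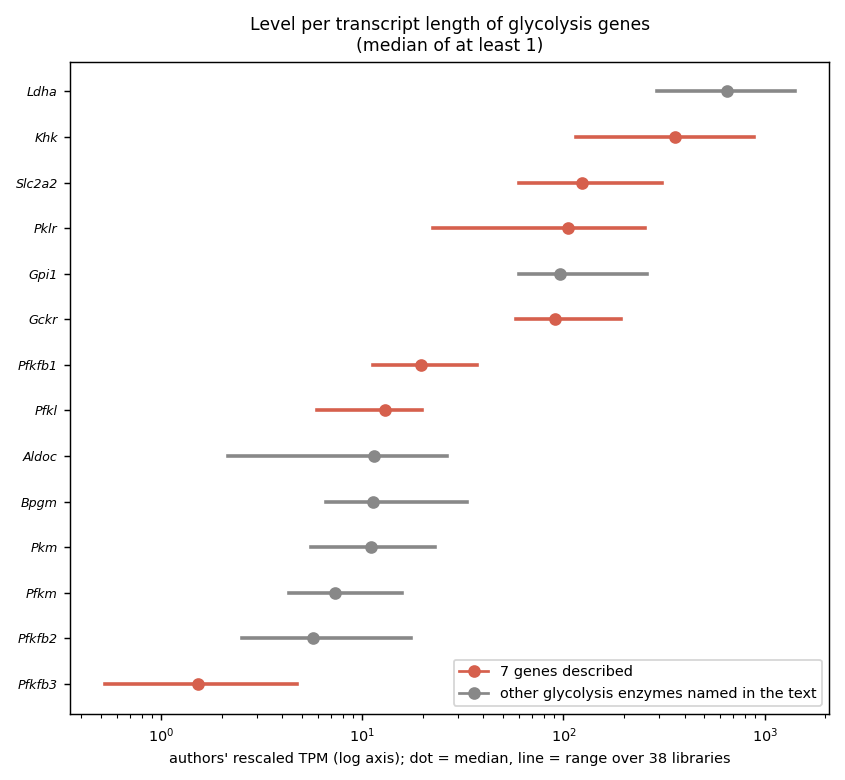
Authors' rescaled TPM (log axis) of the 7 genes and of other glycolysis enzymes named in the text with a median of at least 1, with a dot for the median and a line for the range over 38 libraries. Khk stands at a median of 357 and Pfkfb3 at 1.53, and the line of Pklr reaches from 22.4 to 255.

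Pklr was called more often than any other member. At 6, 14 and 22 h it fell in fasted livers against AL livers and was higher in CR livers than in fasted ones, and it fell in CR_missed against CR_fed. In the edgeR fit of all 38 libraries it thus passed in 7 of the 11 pairs of groups compared. Khk was called in 3 pairs, Gckr in 2, Pfkl in 1, and Slc2a2 and the PFKFB genes in none of the 11 pairs. In fasted against AL livers, 1 of 7 members passed an adjusted p of 0.05 at 6 h, where 2.34% of all 13786 tested genes did. The number at 14 h was 3 of 7, against 24.5% of all genes, and at 22 h 1 of 7, against 11.5%. In CR against AL livers no member passed by edgeR at 0 h (0.479% of all genes), 6 h (0% of all genes), 14 h (0.0218%) or 22 h (4.88%). At an unadjusted p under 0.05 it was 0 at 0, 6 and 14 h and 2 at 22 h, and DESeq2 called 1 at 22 h. In CR against fasted livers 1 of 7 passed at 6 h (6.80% of all genes), 4 of 7 at 14 h (17.1%) and 2 of 7 at 22 h (9.44%). Between CR_missed and CR_fed 1 of 7 passed, against 12.5% of all genes. The libraries of both groups did not overlap for 2 members at 6 h (37.0% of all genes), 3 at 14 h (38.3%) and 3 at 22 h (34.2%) in fasted against AL livers, and for 3 members between CR_missed and CR_fed (34.5%). In CR against AL livers the 0 h groups did not overlap for 2 members (28.1%) and the 14 h groups for 2 (9.68%), with 0 at 6 h (16.0%) and at 22 h (15.1%). In CR against fasted livers there was no overlap for 3 at 6 h (27.7%), 5 at 14 h (32.4%) and 2 at 22 h (16.8%). Comparisons at one time share groups, such as the fasted libraries, so they are not independent of each other.

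**Figure D2:**
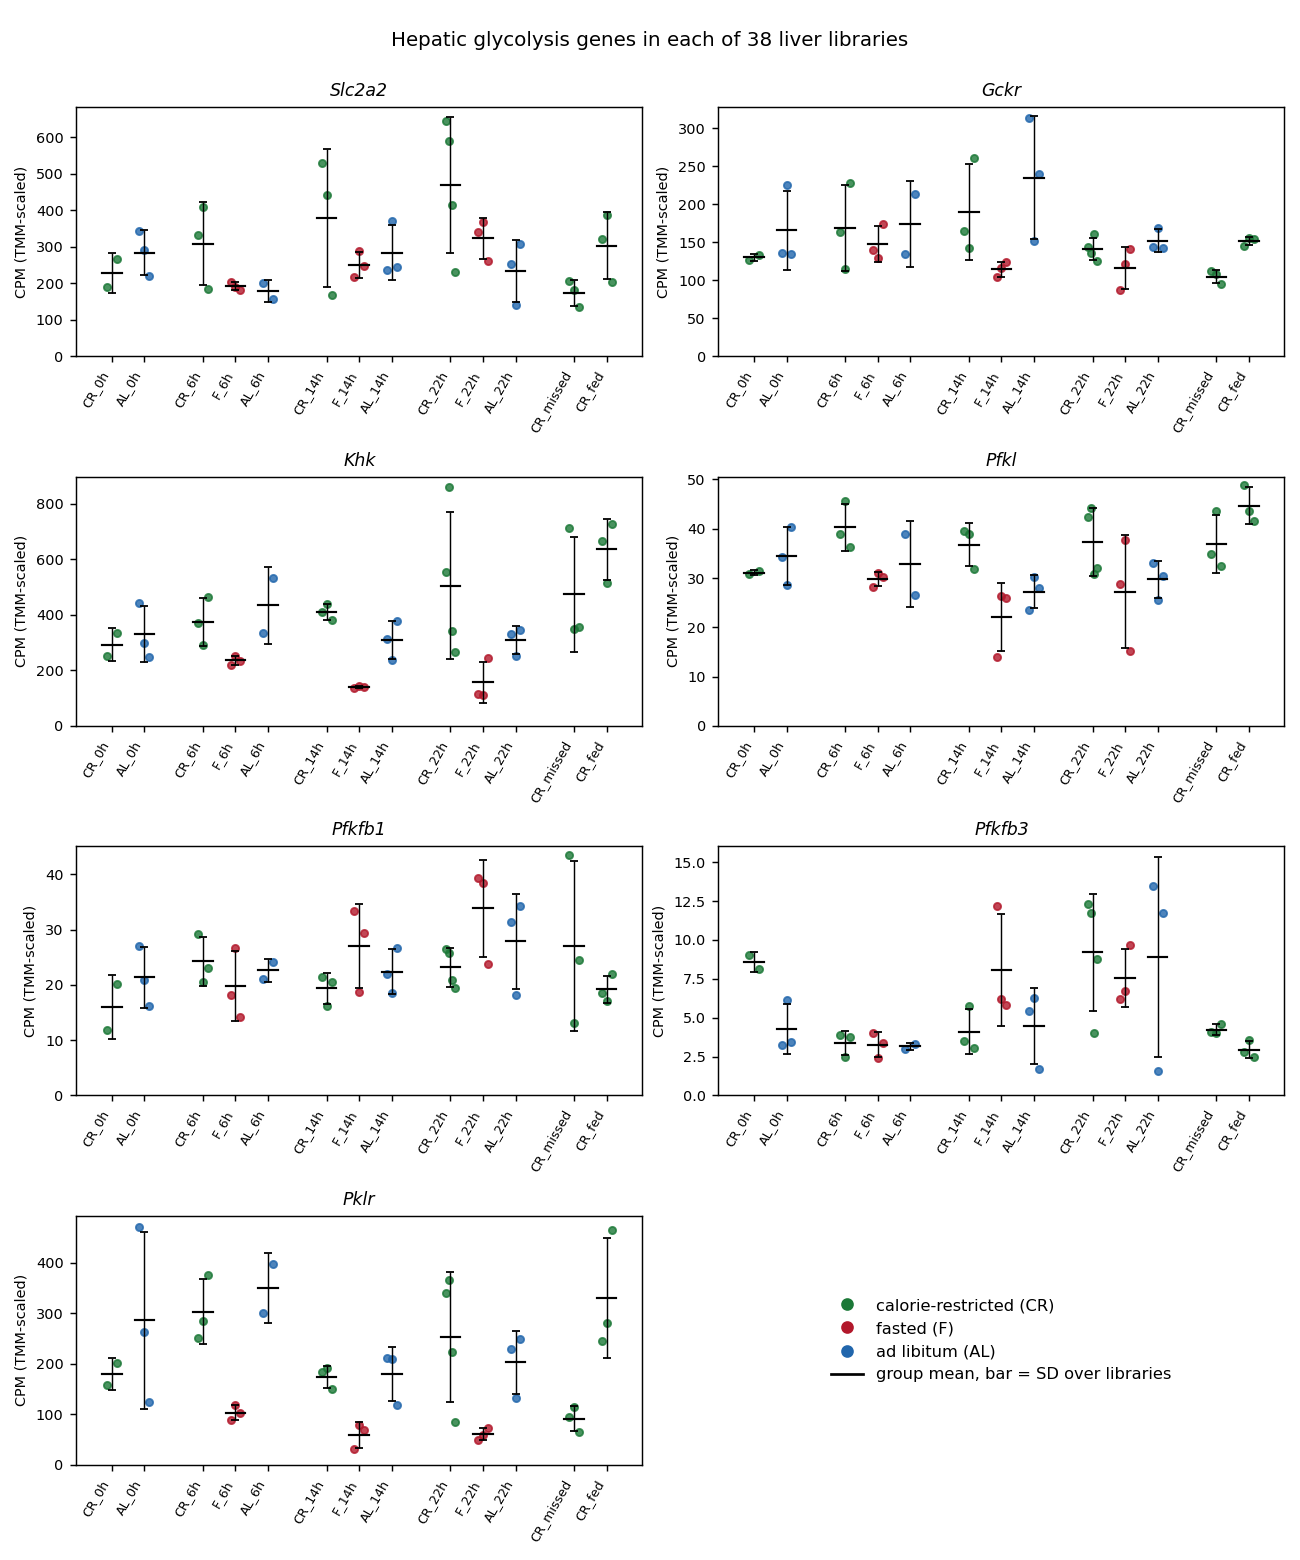
Level in CPM of each gene (linear axis from 0) in every library, grouped by time with CR in green, F in red and AL in blue, and a black line and bar for the group mean and SD. In the Pklr panel the fasted libraries lie between 30.4 and 118 CPM and the CR_missed libraries between 65.1 and 115 CPM.

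Pyruvate kinase of the liver, Pklr (ENSMUSG00000041237, GRCm38 chr3:89136142-89146784, plus strand), catalyses the last step of glycolysis. At 6 h it had 88.4, 118 and 102 CPM in F_6h, against 300.0 and 398 CPM in AL_6h. At 14 h it had 30.4, 78.4 and 68.6 CPM in F_14h, against 212, 209 and 119 CPM in AL_14h. At 22 h it had 49.9, 59.0 and 72.8 CPM in F_22h, against 228, 132 and 248 CPM in AL_22h. The groups did not overlap at any of the 3 times, and each fasted library was below each AL library of its time. The log2 fold change was -1.76 ± 0.46 (SE) at 6 h (adjusted p = 0.0316), -1.60 ± 0.42 at 14 h (adjusted p = 0.0065) and -1.74 ± 0.42 at 22 h (adjusted p = 0.00766). A test of whether the effect of fasting differed between times gave an adjusted p of 0.992. The call at 6 h was lost when any 1 of the 5 libraries was left out, with log2 fold changes of -1.94 to -1.55. At the later times it was lost without F_14h 1 at 14 h (-1.29, adjusted p = 0.0517) and without F_22h 1 at 22 h (-1.62, adjusted p = 0.055). Without AL_22h 2, whose clock genes did not match its time, and AL_0h 2, the value at 22 h was -1.96 (adjusted p = 0.00841).

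No difference in Pklr was called between CR and AL livers. It had 158 and 202 CPM in CR_0h, against 471, 263 and 123 CPM in AL_0h, a log2 fold change of -0.67 ± 0.47 (95% interval -1.62 to 0.29). It had 250.4, 283 and 375 CPM in CR_6h, against the 2 AL_6h values above, a log2 fold change of -0.20 ± 0.46 (95% interval -1.14 to 0.73). The 14 h livers had 183, 191 and 149.9 CPM in CR_14h, and the log2 fold change to AL_14h was -0.04 ± 0.41 (95% interval -0.88 to 0.80). At 22 h it had 339, 366, 222 and 84.1 CPM in CR_22h, the widest spread of the CR groups, and the log2 fold change to AL_22h was 0.32 ± 0.39 (95% interval -0.47 to 1.11). The groups overlapped at each of the 4 times.

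Against the fasted livers, the CR libraries did not overlap at any time. Pklr averaged 303 ± 64.4 CPM in CR_6h and 103 ± 15.0 CPM in F_6h (SD, n = 3 each), a log2 fold change of 1.56 ± 0.42 (adjusted p = 0.0213). It averaged 174 ± 21.7 CPM in CR_14h and 59.2 ± 25.4 CPM in F_14h (SD, n = 3 each), a log2 fold change of 1.56 ± 0.42 (adjusted p = 0.0106). It averaged 253 ± 128 CPM in CR_22h (SD, n = 4) and 60.6 ± 11.6 CPM in F_22h (SD, n = 3), a log2 fold change of 2.06 ± 0.41 (adjusted p = 0.00165). The call at 22 h held in all 7 fits that left out a library. At 6 h it was kept in 2 of 6 fits, and lost without CR_6h 3 (1.39, adjusted p = 0.0625), F_6h 1 (adjusted p = 0.0977), F_6h 2 (adjusted p = 0.0572) or F_6h 3 (adjusted p = 0.0721). The 14 h call was kept in 5 of 6, and lost without F_14h 1 (1.25, adjusted p = 0.0838). Without the 4 libraries nearest to another diet, which include 1 CR library of each of these times, the values were 1.38 at 6 h (adjusted p = 0.0411), 1.65 at 14 h (adjusted p = 0.011) and 2.10 at 22 h (adjusted p = 0.00108).

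Pklr was also low in CR_missed. It had 94.9, 115 and 65.1 CPM in CR_missed, against 244, 281 and 465 CPM in CR_fed, and the groups did not overlap. With a log2 fold change of -1.85 ± 0.43 (adjusted p = 0.00458), the call held in all 6 fits that left out a library. The log2 fold change of F_22h against AL_22h minus that of CR_missed against CR_fed was 0.11 ± 0.58 (95% interval -1.08 to 1.30, adjusted p = 0.958). All 3 red blood cell markers were measured, and their sum was 2993 to 9273 CPM in CR_missed, against 576 to 1328 CPM in CR_fed. All 5 endothelial markers were measured, with a sum of 125 to 158 CPM in CR_missed, against 81.8 to 98.9 CPM in CR_fed, and no marker of these lists had a median under 0.1 CPM. The 6 stellate cell and fibroblast markers summed to 239 to 325 CPM in CR_missed, against 205 to 210 CPM in CR_fed. Hepatocyte sums overlapped, at 107400 to 126300 CPM in CR_missed and 113500 to 136500 CPM in CR_fed. The part of these cells in the result was not tested. Over all 13 groups the order of mean levels ran AL_6h, CR_fed, CR_6h, AL_0h, CR_22h, AL_22h, CR_0h, AL_14h, CR_14h, F_6h, CR_missed, F_22h and F_14h, from 349 down to 59.2 CPM. Of the 12 neighbouring pairs in that order, only CR_14h and F_6h did not overlap. The end of Pklr shares 711 exonic bases with Hcn3 on the minus strand, an ion channel gene, and in non-directional libraries reads of the 2 genes in that stretch cannot be told apart.

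Ketohexokinase, the product of Khk (ENSMUSG00000029162, chr5:30921431-30931248, plus strand), phosphorylates fructose on entry to the liver. At 6 h it had 220, 252 and 234 CPM in F_6h, against 335 and 532 CPM in AL_6h, with a log2 fold change of -0.88 ± 0.37 (adjusted p = 0.243). At 14 h it had 136, 145 and 141 CPM in F_14h, against 311, 238 and 377 CPM in AL_14h, and it fell by 1.14 ± 0.34 on the log2 scale (adjusted p = 0.0151). At 22 h it had 115, 111 and 243 CPM in F_22h, against 331, 251 and 345 CPM in AL_22h, with a log2 fold change of -0.98 ± 0.34 (adjusted p = 0.055). Each fasted library was below each AL library of its time, and in the edgeR fit of all 38 libraries the 14 h difference passed. At 22 h 6 of 17 alternatives called it, among them DESeq2 (-0.96, adjusted p = 0.0304), limma with a pseudocount of 1 (-1.05, adjusted p = 0.0308), the replicate block (-0.99, adjusted p = 0.0366) and the fit without F_22h 3, the highest library of its group (-1.45, adjusted p = 0.0102). Over the 17, the adjusted p lay between 0.0102 and 0.232. At 6 h 1 of 14 alternatives called it, the fit of only the compared libraries (-0.87, adjusted p = 0.0457).

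Across all genes the fold changes of fasted against AL livers rose with transcript length, with Spearman's rho of 0.191 at 6 h, 0.404 at 14 h and 0.390 at 22 h over genes, which are not independent, and the longest Khk transcript, of 1583 bases, was the shortest of the 7 genes. With that trend removed from each library, the Khk value at 14 h was -0.72 (adjusted p = 0.0881). The 14 h call was also lost without AL_14h 3 (-0.97, adjusted p = 0.0787) and without F_14h 1 (-1.11, adjusted p = 0.0513).

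No difference in Khk was called between CR and AL livers, which overlapped at 0, 6 and 22 h. It had 251 and 334 CPM in CR_0h, against 444, 298 and 249.0 CPM in AL_0h, a log2 fold change of -0.18 ± 0.38. It had 370, 291 and 464 CPM in CR_6h, a log2 fold change to AL_6h of -0.21 ± 0.37. It had 408, 440 and 382 CPM in CR_14h, each above the 3 AL_14h libraries, with a log2 fold change of 0.41 ± 0.34 (adjusted p = 0.724), and 553, 858, 341 and 266 CPM in CR_22h, with a log2 fold change to AL_22h of 0.71 ± 0.32 (adjusted p = 0.192). Against fasted livers it was higher in CR by 1.55 ± 0.34 at 14 h (adjusted p = 0.0024) and by 1.69 ± 0.33 at 22 h (adjusted p = 0.00133), and the value at 6 h was 0.67 ± 0.34 (adjusted p = 0.255). In these comparisons rho with length was -0.332 at 14 h and -0.252 at 22 h, and with the trend removed the values were 1.26 at 14 h (adjusted p = 0.00438) and 1.51 at 22 h (adjusted p = 0.000944), and both calls held in each fit that left out a library. The call at 22 h was lost in a fit of only the 7 compared libraries (1.68, adjusted p = 0.0825). In the missed-meal comparison Khk had 713, 348 and 357 CPM in CR_missed, against 666, 514 and 726 CPM in CR_fed, a log2 fold change of -0.43 ± 0.34 (95% interval -1.11 to 0.26). CR_missed 1 lay within the range of the fed libraries and the other 2 below it. The log2 fold change of Khk in F_22h against AL_22h minus that in CR_missed against CR_fed was -0.56 ± 0.48 (adjusted p = 0.603).

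**Figure D3:**
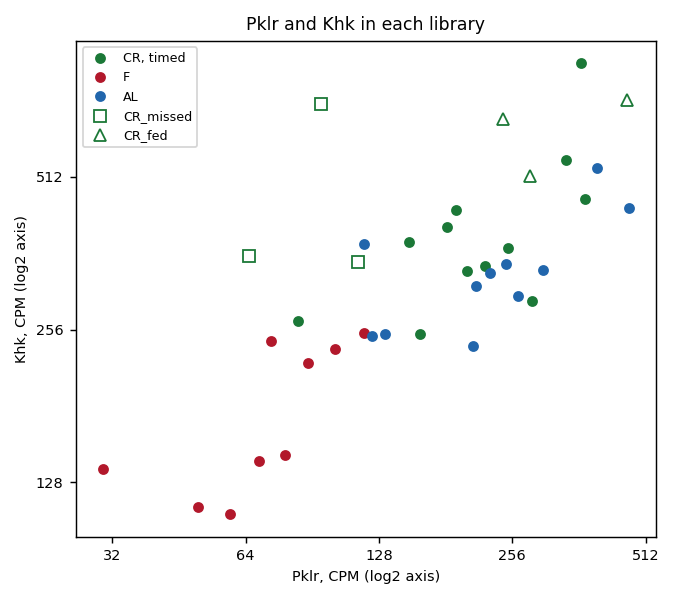
Khk against Pklr in CPM (both log2 axes) in each of the 38 libraries, with CR, F and AL as dots and CR_missed and CR_fed as open squares and triangles. The 9 fasted libraries lie between 30.4 and 118 CPM of Pklr and between 111 and 252 CPM of Khk, and the 3 CR_missed libraries combine 65.1 to 115 CPM of Pklr with 348 to 713 CPM of Khk.

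Cell type markers differed between groups in the 14 h comparisons, and in some of those at 6 and 22 h. The summed hepatocyte markers were 119400 to 148600 CPM in CR_14h, 89230 to 107900 CPM in F_14h and 115400 to 126300 CPM in AL_14h. The summed endothelial markers, all 5 of them measured, were 106 to 142 CPM in CR_14h, 157 to 189.7 CPM in F_14h and 33.6 to 97.5 CPM in AL_14h. Their part in the 14 h results was not tested. At 6 and 22 h the hepatocyte sums overlapped between fasted and AL livers, at 93470 to 107400 CPM in F_6h, against 88240 to 113400 CPM in AL_6h, and 74910 to 120700 CPM in F_22h, against 83530 to 113700 CPM in AL_22h. In CR livers they were 108500 to 147000 CPM in CR_6h and 100700 to 148900 CPM in CR_22h, the latter overlapping F_22h. The lowest CR_6h library was only just above the highest F_6h library, and these sums are without TMM scaling. Some other lists did not overlap at 6 or 22 h. Stellate cell and fibroblast markers had 289 to 332 CPM in F_22h, against 260 to 282 CPM in AL_22h. Cholangiocyte markers had 15.7 to 28.2 CPM in F_6h, against 35.2 to 39.1 CPM in AL_6h. Kupffer cell and macrophage markers had 84.0 to 235.5 CPM in CR_22h, against 266 to 376 CPM in AL_22h. Endothelial sums overlapped between fasted and AL livers at both times. The part of these cells was not tested.

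Gckr (ENSMUSG00000059434, chr5:31297443-31327314, plus strand) had 104, 116 and 124 CPM in F_14h, against 314, 151 and 240.0 CPM in AL_14h. Each fasted library was below each AL library, and Gckr fell by 1.03 ± 0.26 on the log2 scale (adjusted p = 0.00442), a call kept in all 15 alternatives. At 6 h the groups overlapped, with 140.3, 129 and 174 CPM in F_6h, against 134 and 214 CPM in AL_6h (log2 fold change -0.24 ± 0.28, adjusted p = 0.774). At 22 h it had 87.1, 121 and 141 CPM in F_22h, against 144, 169 and 142 CPM in AL_22h (log2 fold change -0.38 ± 0.26, adjusted p = 0.345), again with each fasted library below each AL library. A test of whether the effect of fasting on Gckr differed between times gave an adjusted p of 0.658.

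In CR livers Gckr had 165, 142 and 261 CPM in CR_14h, 0.72 ± 0.26 higher on the log2 scale than in F_14h (adjusted p = 0.0498). Without CR_14h 3, which stood nearest to an AL library, the value was 0.42 (adjusted p = 0.322), and without any 1 of the F_14h libraries it was 0.66 to 0.78 (adjusted p = 0.0853 to 0.159). Against AL livers the 4 log2 fold changes of Gckr lay between -0.34 ± 0.29 at 0 h and -0.05 ± 0.29 at 6 h. In the missed-meal comparison Gckr had 112, 108 and 94.6 CPM in CR_missed, against 145, 155 and 154 CPM in CR_fed, and the groups did not overlap. Their log2 fold change was -0.53 ± 0.26 (adjusted p = 0.185). No label pairs the libraries of these 2 groups, and their replicate numbers were taken as paired from correlations in these same data. With the number as a block in a fit of the 6 libraries the value was -0.54 (adjusted p = 0.0229), and -0.54 in that fit without the block (adjusted p = 0.0354). These were the only 2 of 16 alternatives that called the difference. Group means of Gckr ran from 235 CPM in AL_14h to 105 CPM in CR_missed, and all 12 neighbours in that order overlapped.

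Slc2a2 (ENSMUSG00000027690, chr3:28697903-28731359, plus strand) encodes GLUT2, the transporter that carries glucose across the hepatocyte membrane in both directions. In the edgeR fit of all 38 libraries none of the 11 comparisons called it, and 2 had an unadjusted p under 0.05. In fasted livers it had 205, 190.0 and 182 CPM in F_6h, against 201 and 157 CPM in AL_6h (log2 fold change 0.10 ± 0.40, 95% interval -0.72 to 0.92). At 14 h it had 217, 288 and 247 CPM in F_14h, against 237, 371 and 244 CPM in AL_14h, and at 22 h 341, 368 and 260.3 CPM in F_22h, against 253, 139 and 308 CPM in AL_22h. These groups overlapped at all 3 times.

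The highest group of Slc2a2 was CR_22h, with 646, 589, 415 and 232 CPM, against the 3 AL_22h values above. The log2 fold change was 1.01 ± 0.34 (adjusted p = 0.0784), and 3 of the 4 CR libraries were above all AL libraries. This difference was called in 4 of 19 alternatives. They were DESeq2 (1.03, adjusted p = 0.0312), the replicate block (1.15, adjusted p = 0.028), and edgeR without CR_22h 4, the lowest of its group (1.25, adjusted p = 0.0421), and without the 4 libraries nearest to another diet (1.06, adjusted p = 0.0188). The block absorbs CR_22h 4, the sole replicate 4, so it is not a check separate from the fit without that library. Over the 19, the adjusted p lay between 0.0188 and 0.283, and 1 of 7 fits that left out a library called the difference. At 6 h it had 333, 410.0 and 184 CPM in CR_6h and at 14 h 531, 442 and 168 CPM in CR_14h, while CR_0h had 189 and 267 CPM. Against AL livers the log2 fold changes were -0.32 ± 0.40 at 0 h, 0.79 ± 0.41 at 6 h and 0.42 ± 0.36 at 14 h, and none passed. In CR_6h and CR_14h replicate 3, which is nearest to an AL library, was the lowest of its group. The log2 fold changes of CR against fasted livers were 0.68 ± 0.36 at 6 h, 0.60 ± 0.36 at 14 h and 0.54 ± 0.34 at 22 h, and none passed. Without all 6 libraries that stood apart, a setting chosen after seeing the data, the first was 0.97 (adjusted p = 0.0477) and the second 0.95 (adjusted p = 0.0382). In each of these 2 comparisons this was the only 1 of 17 alternatives with a call. The highest adjusted p over the alternatives was 0.608 at 6 h and 0.678 at 14 h. At zeitgeber time 18 Slc2a2 had 205, 182 and 135 CPM in CR_missed, against 321, 386 and 204 CPM in CR_fed. The log2 fold change was -0.80 ± 0.36 (adjusted p = 0.147), and -0.78 with the replicate block in a fit of the 6 libraries (adjusted p = 0.0112). That fit, whose pairing no label states, was the only 1 of 16 alternatives that called the difference. Its log2 fold change in F_22h against AL_22h minus that in CR_missed against CR_fed was 1.27 ± 0.51 (95% interval 0.23 to 2.30, adjusted p = 0.218).

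Pfkl (ENSMUSG00000020277, chr10:77986947-78010083, minus strand), the liver subunit of phosphofructokinase, lay between 14.0 and 48.9 CPM over all libraries. At 14 h it had 39.6, 38.9 and 31.9 CPM in CR_14h, against 14.0, 26.3 and 25.9 CPM in F_14h. The groups did not overlap and Pfkl was 0.74 ± 0.24 higher in CR on the log2 scale (adjusted p = 0.0308). The call was lost in 3 of 6 fits that left out a library, with 0.50 (adjusted p = 0.209) without F_14h 1, 0.68 (adjusted p = 0.0765) without CR_14h 1 and 0.69 (adjusted p = 0.0823) without CR_14h 2. The log2 fold changes at the other times were 0.43 ± 0.24 at 6 h and 0.46 ± 0.22 at 22 h. In fasted against AL livers the 3 values lay between -0.30 ± 0.24 and -0.13 ± 0.24. Those of CR against AL livers were -0.14 ± 0.26 at 0 h and 0.30 ± 0.27 at 6 h. They were 0.43 ± 0.24 at 14 h and 0.33 ± 0.22 at 22 h, and none passed. AL_14h had 23.6, 30.2 and 27.9 CPM and did not overlap CR_14h, as for 9.68% of all genes. The highest group of Pfkl was CR_fed, with 48.9, 43.5 and 41.6 CPM, against 34.9, 43.5 and 32.4 CPM in CR_missed, and these overlapped.

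The bifunctional enzyme of the liver, Pfkfb1 (ENSMUSG00000025271, chrX:150588229-150643878, plus strand), both makes and breaks down the activator of phosphofructokinase, and glucagon signalling turns it toward breakdown by phosphorylation of the protein. Its messenger RNA was called in none of the 11 comparisons, and its log2 fold changes lay between -0.54 ± 0.29 in CR_22h against F_22h and 0.49 ± 0.31 after the missed meal. It had 39.3, 38.4 and 23.8 CPM in F_22h, the highest group, against 31.3, 18.2 and 34.2 CPM in AL_22h. In CR_missed the 3 libraries had 43.4, 13.04 and 24.6 CPM, against 18.6, 17.1 and 21.9 CPM in CR_fed, so that CR_missed held the highest of all 38 libraries and also 1 that lay below the fed ones. Without CR_missed 1, the log2 fold change after the missed meal was -0.03. Pfkfb1 shares 123 exonic bases with Apex2 on the minus strand.

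Pfkfb3 (ENSMUSG00000026773, chr2:11471433-11554077, minus strand), the inducible isoform with high kinase activity, had 31 to 318 counts per library, the fewest of the 7. It was the only member whose level changed over time within a diet, in CR (adjusted p = 0.0458; 20.6% of all genes passed that test). It had 9.07 and 8.14 CPM in CR_0h, 3.89, 2.45 and 3.76 CPM in CR_6h, 3.48, 5.74 and 3.08 CPM in CR_14h, and 12.3, 11.7, 4.03 and 8.77 CPM in CR_22h. The 0 h libraries were above all 6 and 14 h libraries, and CR_22h 3 was within the range of the 14 h group. The call was kept in 9 of 23 alternatives and in 2 of the 12 fits that left out a library, those without CR_14h 2 and without CR_22h 3. In AL livers it had 3.23, 6.12 and 3.42 CPM at 0 h, 3.00 and 3.31 CPM at 6 h, 5.41, 6.26 and 1.69 CPM at 14 h, and 13.5, 1.55 and 11.7 CPM at 22 h. The low value of 1.55 CPM was that of AL_22h 2, whose clock genes resembled those of 6 h. Time within AL did not pass with it (adjusted p = 0.407) and passed in the 3 alternatives without it (lowest adjusted p = 0.00672). In fasted livers it had 3.99, 2.40 and 3.38 CPM at 6 h, 12.2, 6.19 and 5.82 CPM at 14 h, and 6.22, 6.72 and 9.66 CPM at 22 h, with an adjusted p of 0.234 over time. It had 4.05, 4.00 and 4.62 CPM in CR_missed, each above the 2.804, 3.57 and 2.46 CPM of CR_fed, and the log2 fold change was 0.52 ± 0.50 (adjusted p = 0.558).

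**Figure D4:**
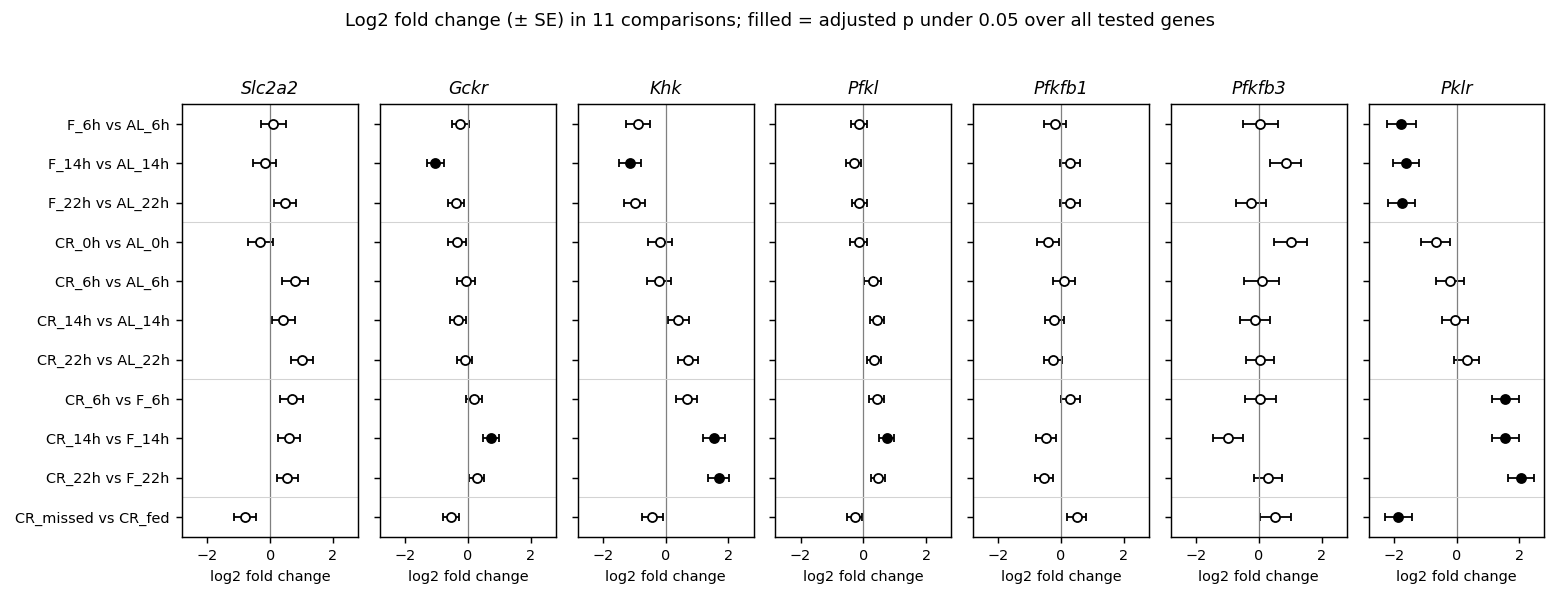
Log2 fold change (horizontal axis, bar = SE) of each gene in 11 comparisons, the first named group over the second, with filled dots for an adjusted p under 0.05. Pklr is filled in 7 comparisons, at -1.85 to -1.60 for fasting and the missed meal and at 1.56 to 2.06 for CR against F.

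No member changed over time in AL (0.276% of all genes passed) or in fasted livers (2.86%) by edgeR, with 1 member at an unadjusted p under 0.05 in each. No member had a fasting effect that differed between times (0.0653% of all genes), a CR effect against AL that differed between times (0.442%), or a difference between the effects of fasting at 22 h and of the missed meal (0.885%). At an unadjusted p under 0.05 these counts were 0, 0 and 1, the last being Slc2a2.

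Genes of the lists that follow are called higher or lower where the adjusted p of edgeR was under 0.05, and changes are log2 fold changes ± SE. Other enzymes of glycolysis, 23 of 24 tested, had at most 4 calls in any pair. In fasted against AL livers none passed at 6 h by edgeR (2.34% of all genes), at an unadjusted p under 0.05 either. At 14 h 1 rose and 1 fell, where 24.5% of all genes passed, and likewise at 22 h, where 11.5% did. Medians of the list were 0.35 and 0.23, against -0.04 and -0.03 over all genes. Pfkfb2, a PFKFB isoform of heart and other tissues, averaged 21.3 ± 5.28 CPM in F_14h and 7.40 ± 1.86 CPM in AL_14h (SD, n = 3 each), and rose by 1.52 ± 0.31 on the log2 scale. Aldoc, an aldolase isoform best known from brain, fell by 1.24 ± 0.36 at 14 h and by 1.78 ± 0.37 at 22 h. In CR against fasted livers the same pair had the opposite signs at 14 h, with 1.86 ± 0.36 for Aldoc and -1.64 ± 0.31 for Pfkfb2, a comparison that shares the F_14h libraries. In that comparison 17.1% of all genes passed. At 22 h, where 9.44% of all genes passed, 2 were higher in CR and 2 were lower. Higher were Aldoc at 2.41 ± 0.36 and Pfkm, the muscle phosphofructokinase, at 0.82 ± 0.24. Lower were Bpgm at -1.09 ± 0.31 and lactate dehydrogenase Ldha at -0.96 ± 0.25. Against AL, CR_22h was higher in Pfkm (1.21 ± 0.24) and in the hexose phosphate isomerase Gpi1 (1.06 ± 0.30). At 6 h Gpi1 was also 1.12 ± 0.32 higher in CR than in fasted livers.

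In CR_missed against CR_fed, where 12.5% of all genes passed, Bpgm rose by 1.27 ± 0.34 and Ldha by 0.86 ± 0.27. Bpgm makes 2,3-bisphosphoglycerate in red cells, and these groups also differed in red blood cell markers, as given above. Hk2 and Pfkfb4, with means under 5 CPM and therefore named after their values were seen, changed by -2.62 ± 0.66 and -1.36 ± 0.45. Hk2 is a hexokinase of muscle and fat. The summed muscle markers, all 3 of them measured, were 0.185 to 0.878 CPM in CR_missed, against 1.19 to 170.3 CPM in CR_fed, and their part in these results was not tested.

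Of the 8 other genes of fructose and polyol metabolism, all tested, 2 fell in fasted against AL livers at 14 h (24.5% of all genes passed) and at 22 h (11.5%). None fell at 6 h, where 2 had an unadjusted p under 0.05. Sord, which oxidises sorbitol to fructose, averaged 573 ± 64.3 CPM in F_14h and 1422 ± 116 CPM in AL_14h (SD, n = 3 each), a log2 fold change of -1.31 ± 0.20, and -1.02 ± 0.20 at 22 h. Akr1b3, the aldose reductase that makes sorbitol from glucose, changed by -1.06 ± 0.23 at 14 h and -0.78 ± 0.22 at 22 h. In CR against fasted livers 3 were higher at 14 h (17.1% of all genes passed), among them Aldh1b1 at 1.44 ± 0.50. At 22 h it was 2 (9.44%), with Sord at 1.34 ± 0.19. At 6 h it was 1 (6.80%), Glyctk (0.86 ± 0.20), which acts on glycerate from fructose. In CR_missed against CR_fed, where 12.5% of all genes passed, 1 of the 8, the aldehyde dehydrogenase Aldh1b1, fell (-1.70 ± 0.50). Tkfc, which phosphorylates glyceraldehyde from fructose, passed in none of the 11 comparisons.

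Of the other hexose transporters, 7 of 9 were tested and at most 2 passed in any comparison. Slc2a9, a urate transporter of the GLUT family, was 1.03 ± 0.33 higher in CR_14h than in F_14h and fell by 1.08 ± 0.33 after the missed meal. Slc2a8, which is also on the fructose list, was 0.87 ± 0.26 higher in CR_22h than in F_22h. Slc2a3 rose in F_14h against AL_14h (1.79 ± 0.62), and Slc2a4, the insulin-responsive transporter of muscle and fat, changed by -4.39 ± 1.28 in F_22h against AL_22h and by -4.26 ± 1.27 after the missed meal. Both were under 5 CPM in the groups compared and are named after their values were seen. The summed level of the 3 skeletal muscle markers was 0.185 to 0.878 CPM in CR_missed, against 1.19 to 170.3 CPM in CR_fed, and 0 to 0.150 CPM in F_22h, against 0 to 4.17 CPM in AL_22h. That of the 4 adipocyte markers was 0.0878 to 0.231 CPM in CR_missed, against 0 to 14.6 CPM in CR_fed, and 0.1002 to 0.178 CPM in F_22h, against 0.0443 to 0.0935 CPM in AL_22h. Their part in the Slc2a4 values was not tested.

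Enzymes of gluconeogenesis and glucose release, which run against glycolysis, numbered 7, all tested. In fasted against AL livers 1 rose at 6 h, where 2.34% of all genes passed. It was 3 at 14 h (24.5%) and 3 at 22 h (11.5%), and none fell. Pck1, which makes phosphoenolpyruvate, averaged 2745 ± 166 CPM in F_6h (SD, n = 3) and 389 ± 2.62 CPM in AL_6h (SD, n = 2), a log2 fold change of 2.82 ± 0.76. G6pc, which releases free glucose, rose by 2.14 ± 0.47 at 14 h and 2.05 ± 0.47 at 22 h, and Pcx, which carboxylates pyruvate, by 0.86 ± 0.29 and 1.16 ± 0.29. In CR_missed against CR_fed 1 of the 7, Pck1, rose (2.53 ± 0.64), where 12.5% of all genes passed. In CR against AL livers at 22 h both Pck1 (2.67 ± 0.62) and G6pc (1.85 ± 0.45) rose, while Pklr had the value of 0.32 ± 0.39 given above.

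Among 12 transcription factors linked to these genes, Mlxipl, which encodes ChREBP, averaged 75.0 ± 16.9 CPM in F_14h and 266 ± 159 CPM in AL_14h (SD, n = 3 each), a log2 fold change of -1.83 ± 0.51, and changed by -1.73 ± 0.51 at 22 h. At 6 h its value was -0.86 ± 0.55, and after the missed meal -0.93 ± 0.50, and neither passed. Srebf1, the insulin-responsive lipogenic factor, fell at all 3 times, with log2 fold changes of -1.73 ± 0.42 at 6 h, -2.97 ± 0.41 at 14 h and -3.43 ± 0.42 at 22 h. It averaged 35.7 ± 10.8 CPM in CR_missed and 579.9 ± 54.8 CPM in CR_fed (SD, n = 3 each), a log2 fold change of -4.02 ± 0.43. Of the 12, 1 passed at 6 h in fasted against AL livers, where 2.34% of all genes did. At 14 h 6 passed (2 higher, 4 lower), against 24.5% of all genes. The number at 22 h was 5 (2 higher, 3 lower), against 11.5%. After the missed meal 2 passed, both lower, against 12.5%. Foxo1, a factor that insulin keeps out of the nucleus, rose by 1.41 ± 0.32 in F_14h. In CR against AL livers 3 were higher and 2 lower at 22 h, where 4.88% of all genes passed. Among these, Srebf1 was at -1.37 ± 0.35 and Foxo1 at 1.14 ± 0.31. At 0 h (0.479% of all genes) 1, the orphan receptor Nr0b2, fell (-4.13 ± 0.65).

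The 12 other carbohydrate-responsive genes, all tested, included lipogenic enzymes. In fasted against AL livers 7 fell and 1 rose at 6 h, where 2.34% of all genes passed. At 14 h 3 fell and 1 rose (24.5% of all genes), and at 22 h 4 fell and 1 rose (11.5%). The list medians were -1.61, -0.52 and -0.51, against -0.02 to -0.04 over all genes. The one that rose was Txnip each time, a gene also known as a ChREBP target, at 1.71 ± 0.36, 2.63 ± 0.32 and 2.20 ± 0.31, named at 6 h after its value was seen. Fasn, the fatty acid synthase, averaged 146 ± 19.8 CPM in F_6h (SD, n = 3) and 1121 ± 293 CPM in AL_6h (SD, n = 2), a log2 fold change of -2.94 ± 0.52. In CR against fasted livers 6 were higher and 1, Txnip, was lower at 6 h (6.80% of all genes passed). These numbers were 4 and 1 at 14 h (17.1%), and 1 and 0 at 22 h (9.44%). The gene higher at 22 h was transketolase Tkt (1.53 ± 0.27). In CR_missed against CR_fed 7 fell and 1 rose (12.5% of all genes passed), with a median of -1.51, against -0.01 over all genes. Elovl6, a fatty acid elongase, changed by -3.53 ± 0.56 there, Thrsp, a lipogenic regulator, by -3.76 ± 0.78, and the one that rose was Txnip (2.91 ± 0.32), also named after its value was seen. In CR_22h Txnip was 2.19 ± 0.30 higher than in AL_22h.

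Across the 38 libraries, which share groups and times, Pearson's r of log2 CPM between members was 0.74 for Pklr and Khk, 0.55 for Pklr and Pfkl, 0.54 for Khk and Pfkl and 0.46 for Pklr and Gckr. It lay between -0.20 and 0.24 for Pfkfb1 with each other member and was -0.18 for Pfkfb3 with Pklr. Among the 8872 candidate genes, all averaging 5 CPM or more, the pattern most like that of Pklr was Hcn3 (0.937), which overlaps it, followed by Mid1ip1 (0.855), which encodes a partner of acetyl-CoA carboxylase. Most like Khk were Mif (0.879), Cox5a (0.872) and Ybx1 (0.854). Most like Slc2a2 was Slc2a9 (0.876), and most like Gckr was Ppox (0.878), an enzyme of haem synthesis. For Pfkl it was Apeh (0.808), for Pfkfb3 Atg16l1 (0.729) and for Pfkfb1 Apoa4 (0.657), the lowest of the 7 leading values.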

How the data were processed

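RNA of liver tissue was made into non-directional polyadenylated libraries and sequenced as paired reads, per the labels' protocols. Reads were mapped with Bowtie to GRCm38 protein-coding genes and expected counts were estimated with RSEM 1.2.3, per the labels, and these expected counts are the first deposited table. The other deposited table is a signal: TPM values that EBSeq normalised further for a potential batch effect, as the authors' protocol in the labels states. It gave the levels per length and the limma alternatives. The labels name no batch.

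Expected counts (81.3% of them whole) were rounded. In edgeR 4.0.16 (R 4.3.3), 13786 genes kept by filterByExpr entered 1 quasi-likelihood model of 13 groups and 38 libraries with TMM scaling. P-values were Benjamini-Hochberg adjusted over all tested genes of a comparison, with a threshold of 0.05. SE is the absolute log2 fold change over the square root of F. A total of 11 pairs and 6 joint or difference tests were made. The code was tested on simulated data.

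The 7 genes, the gene lists and the naming rule were chosen with earlier results of these data known. The rule named all 7 genes in each comparison, per list at most 4 called genes with the largest fold changes and a mean of at least 5 CPM in 1 group, and the most alike genes by Pearson's r, leaving out unnamed gene models. A few genes outside the rule are marked as such. A few list genes were counted but are not described here. Gene coordinates come from GENCODE vM21. Replicate numbers were checked for pairing. Of 11 pairs of groups, only CR_missed and CR_fed had correlations of deviations above 0.1 for every number (0.24 to 0.41), with each library closest to its own number. These numbers were taken as paired on that ground alone, since the labels state no pairing. Whether a match in 1 of 11 pairs reflects a true pairing was not tested. Near duplicates were looked for only among libraries of the same group, and no cutoff was set. AL_22h 1 and AL_22h 3 were the most alike, with a mean chi-square per gene of 12.11 between their counts. The next pair, F_6h 1 and F_6h 3, had 22.96. The alternatives were DESeq2 1.42.0 size factors and test, no filter, limma 3.58.1 on the log2 of that signal (pseudocount 1 or 0.1), a replicate block, only the compared libraries, and leaving out each library. Chosen after seeing the data were leaving out 2, 4 or 6 libraries that stood apart, removing the length trend (lowess span 0.3), and the block in the 6 libraries of the missed-meal comparison.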

Additional observations from a re-analysis of the deposited data

How the results depend on the processing

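Over 17 comparisons, 333 alternative counts of called members were made and 286 stayed within 1.5 times the first count. Of 84 pairs of member and comparison, 13 were called. Of 1442 alternative values, 1395 kept their side of the threshold and direction, 30 lost a call, 17 gained one and 0 reversed a called direction, while 61 uncalled values changed sign. Calls kept under every alternative run were 4: Gckr in F_14h against AL_14h, Khk in CR_14h against F_14h, and Pklr in CR_22h against F_22h and after the missed meal.

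In this paragraph a count of members is followed by the number of all genes called in the same fit, and the first mention of a comparison gives both for the full fit. With only the compared libraries the counts were 2 and 828 in F_6h against AL_6h (1 and 322 in the full fit), 2 and 1357 in CR_14h against F_14h (4 and 2354), 1 and 260 in CR_22h against F_22h (2 and 1302), 2 and 2135 after the missed meal (1 and 1719) and 1 and 707 for time within F (0 and 394). With the replicate block they were 2 and 2049 in F_22h against AL_22h (1 and 1581) and 1 and 511 in CR_22h against AL_22h (0 and 673), and 3 and 3014 after the missed meal in a fit of those 6 libraries. The block changed no other count of members, though for time within CR it called Slc2a2 in place of Pfkfb3. In the full fit it absorbs the sole replicate 4, CR_22h 4. DESeq2 gave 2 and 2029 in F_22h against AL_22h and 1 and 1119 in CR_22h against AL_22h. Limma gave 2 and 1673 in F_22h against AL_22h with a pseudocount of 1, 2 and 1651 with 0.1, and 0 and 317 in F_6h against AL_6h without a minimum level. For time within CR (1 and 2839) it called 0 members in all 3 settings and 2477 to 2546 of all genes. Without the 4 libraries nearest to another diet the counts were 1 and 2028 in CR_22h against AL_22h. Without the 2 of a deviant clock they were 1 and 507 for time within AL (0 and 38). Without all 6 they were 2 and 1915 in F_22h against AL_22h, 2 and 1318 in CR_6h against F_6h (1 and 937), 1 and 453 for time within AL and 2 and 3771 for time within CR. The causes were not tested.

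Leaving out 1 library at a time gave 0 to 0 in F_6h against AL_6h, 1 to 3 in F_14h against AL_14h, 0 to 2 in F_22h against AL_22h, 0 to 1 in CR_22h against AL_22h and in CR_6h against F_6h, 1 to 3 in CR_14h against F_14h, 2 to 2 in CR_22h against F_22h, 1 to 1 after the missed meal, and 0 to 1 for time within AL and within CR. The remaining 7 tests gave 0 throughout.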
